A study of Ovis aries with 115 samples.

Results

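PADI2 (ENSOARG00000011146 in the deposited tables) encodes peptidylarginine deiminase 2, a calcium-dependent enzyme that converts arginine residues of proteins to citrulline. It was the 1 gene described here, out of 27054 gene identifiers counted in the sheep cervix. The gene was selected on measured values, since the study named it for its higher level in Belclare than in Suffolk ewes when both were follicular after synchronisation. Values from those ewes are therefore given as a description without a test, and differences between groups were tested only where neither of those groups of ewes took part.

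The peptidylarginine deiminases are a small family whose genes lie together in mammalian genomes. PADI2 is widely expressed and citrullinates histones as well as cytoskeletal proteins, and in oestrogen-responsive cells the histone citrullination it performs is known to accompany activation of oestrogen receptor target genes. PADI4 is best known from neutrophils, where it acts on histones as chromatin is released, and PADI6 from the oocyte and early embryo. In the RefSeq annotation of another sheep assembly, ARS-UI_Ramb_v3.0, PADI2 lay on chromosome 2 next to PADI1 on one side and SDHB on the other, with PADI3, PADI4 and PADI6 following beyond PADI1. PADI1 and PADI3 could not be matched to an identifier in the tables used here and were not analysed.

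Polyadenylated RNA of cervical tissue, taken post mortem, was sequenced in 115 libraries, all but 1 of which had a group. Suffolk (low fertility after cervical insemination with frozen-thawed semen) and Belclare (medium fertility) ewes were kept in Ireland, and Fur and Norwegian White Sheep (NWS), both of high fertility, in Norway. The synchronised follicular state (SF) held 11 Suffolk, 10 Belclare, 8 Fur and 10 NWS multiparous ewes, sampled at the mid-cervix, which had received an intravaginal progestagen sponge and equine chorionic gonadotropin at its removal. The natural follicular state (NF) held 8 Suffolk, 10 Belclare, 10 Fur and 10 NWS ewes in a natural cycle. The synchronised luteal state (SL) held 10 Suffolk, 10 Belclare, 9 Fur and 8 NWS ewes, whose hormone treatment is known here only from the label of an induced cycle. Parity and the sampled part of the cervix are not given for the NF and SL ewes in the sources used here. Breed and country could not be told apart between the Irish and the Norwegian breeds, and no sequencing date or batch was given. Total counts per library ranged from 12238996 to 31261671 (median 17835128.5), and between 41 and 1070 of them (median 222) fell on PADI2. The 9 epithelium and 6 mucous secretion markers used below were named from genes that the study had already kept and listed at SF. Their passing the filter on low counts was thereby fixed and says nothing about the tissue. Levels are given in CPM, the count scaled to library size, after TMM scaling over all grouped libraries, and all differences between groups rest on the log2 scale of edgeR's fits to the counts.

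PADI2 was detected in every ewe, and its mean level was highest in Belclare at SF and lowest in Suffolk at SL, a ratio of 5.96 between the 2 ends of the 12 groups. In each of the 4 breeds the mean was highest at SF, lower at NF and lowest at SL. The medians followed this pattern in Suffolk and NWS only. In Fur the median was 7.25 CPM at SF and 12.2 CPM at NF, and in Belclare 15.7 CPM at NF and 16.3 CPM at SL. The 3 groups of Belclare ewes stood at places 1, 2 and 5 of the order. In descending order the mean CPM was 32.5 ± 7.70 (SD, n = 10) in Belclare SF, 24.4 ± 19.6 (n = 10) in Belclare NF, 17.9 ± 8.32 (n = 10) in NWS SF and 16.8 ± 11.1 (n = 10) in NWS NF. Belclare SL followed at 16.6 ± 6.70 (n = 10), Suffolk SF at 16.5 ± 6.06 (n = 11), Suffolk NF at 13.2 ± 8.59 (n = 8) and Fur SF at 12.3 ± 9.26 (n = 8). The lowest 4 were Fur NF at 11.3 ± 5.06 (n = 10), NWS SL at 10.2 ± 6.78 (n = 8), Fur SL at 7.14 ± 3.33 (n = 9) and Suffolk SL at 5.44 ± 2.99 (n = 10). None of the 11 gaps between neighbours in this order exceeded the larger SD of its pair. The SD describes the spread between ewes, and the order itself was not tested.

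**Figure D1:**
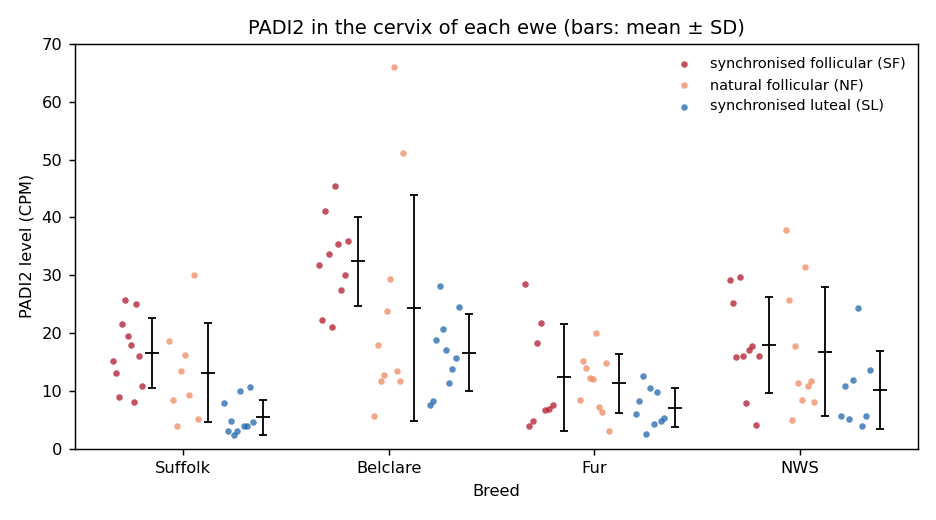
PADI2 level in CPM (vertical axis) of each ewe, by breed (horizontal axis) and state (colours), with each point a ewe and bars at the group mean ± SD. Belclare SF ewes lay between 21.1 and 45.5 CPM, Suffolk SL ewes between 2.46 and 10.6 CPM, and the widest group, Belclare NF, ran from 5.66 to 66.1 CPM.

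Ewes of one group differed widely in PADI2. The SD of log2 CPM within groups was 0.81, against a median of 0.38 over the 15649 genes kept, and was larger than that of 85.3% of them. The coefficient of variation was smallest in Belclare SF, at 23.7%, and largest in Belclare NF, at 80.3%. In Fur SF, 5 of the 8 ewes lay at or below 7.66 CPM and the other 3 between 18.3 and 28.6 CPM, with none between.

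The values from which PADI2 was chosen were these. At SF the Belclare ewes had 21.1 CPM at the lowest, 32.8 at the median and 45.5 at the highest, and the Suffolk ewes 8.02, 16.0 and 25.7. The ranges overlapped, with 8 of 10 Belclare ewes above the highest Suffolk ewe, and the fitted log2 fold change was 0.97 ± 0.20 (SE). In the same state the fitted difference from Suffolk was -0.43 ± 0.35 in Fur and 0.13 ± 0.27 in NWS. A call, here and below, is an adjusted p under 0.05 with a fold change above 1.5. Called genes made up 0.00639% of all genes tested for Belclare, 13.5% for Fur and 18.7% for NWS against Suffolk at SF, from which nothing is read about PADI2. At the same thresholds the study, with DESeq2 and its own filter, listed more genes for Belclare, PADI2 among them.

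PADI2 was chosen with earlier results of these data known. Whether Belclare ewes also had more PADI2 than Suffolk ewes in the other states was asked of ewes not used when the study named it. In the luteal phase they did. Belclare SL ewes ranged from 7.56 to 28.1 CPM with a median of 16.3, and Suffolk SL ewes from 2.46 to 10.6 CPM with a median of 4.26. Of the 10 Belclare ewes 8 lay above the highest Suffolk ewe, of the 10 Suffolk ewes 7 lay below the lowest Belclare ewe, and the ranges met between 7.56 and 10.6 CPM. PADI2 was 3.04-fold higher in Belclare (log2 fold change 1.61 ± 0.30 SE, adjusted p = 0.0182), and ranked at place 23 by p among 15649 genes. In this comparison 2.74% of genes were called in either direction. An exact two-sided permutation test of the mean log2 CPM of PADI2 alone gave p = 0.000141.

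Fewer cells that express a gene and less RNA per cell cannot be told apart in such bulk tissue. Epithelium marker genes (junction and surface genes such as CDH1 and CLDN4) summed to 1245 to 2613 CPM (median 1841) in Belclare SL and 1125 to 1804 CPM (median 1471) in Suffolk SL, and none of the 9 was called. Mucous secretion markers (mucins and secreted proteins such as MUC5B and WFDC2) summed to 1767 to 3913 CPM (median 2544) in Belclare SL and 1103 to 3078 CPM (median 1730) in Suffolk SL, and none of the 6 was called. Fibroblast markers summed to 564 to 1478 CPM (median 1223) in Belclare SL and 1203 to 2612 CPM (median 1662) in Suffolk SL, with 1 of the 5, MMP2, called lower. None of the 3 smooth muscle, 6 leukocyte, 3 granulocyte and 2 endothelium marker identifiers was called. With the epithelium level as a covariate in edgeR the PADI2 difference at SL was 1.21 ± 0.27 and was no longer called (unadjusted p = 0.000218, adjusted p = 0.131), in a fit that called 0 of 15649 genes, with 1785 at an unadjusted p under 0.05. With the mucous level it was 1.39 ± 0.32 (adjusted p = 0.0735), in a fit that called 0.102% of genes. These covariates were added after the data were seen. All marker genes could be named only from the study's lists of genes that differed at SF, mostly of those higher in Suffolk than in Fur.

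At NF the Belclare ewes had 5.66, 15.7 and 66.1 CPM at the lowest, median and highest, and the Suffolk ewes 3.89, 11.3 and 30.1. Most ewes of both breeds shared one range, and only 2 of 10 Belclare ewes exceeded every Suffolk ewe. The log2 fold change of 0.90 ± 0.46 did not pass (adjusted p = 0.520), in a comparison in which 0.00639% of genes were called. Averaged over NF and SL, a contrast added after the first results were seen, PADI2 was 2.37-fold higher in Belclare than in Suffolk (log2 fold change 1.24 ± 0.28, adjusted p = 0.00410), where 4.22% of genes were called.

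Neither high fertility breed differed from Suffolk in PADI2 by an amount that passed the test at NF or SL. In Fur the log2 difference was -0.22 ± 0.37 at NF (adjusted p = 0.702) and 0.39 ± 0.32 at SL (adjusted p = 0.370). In NWS it was 0.34 ± 0.42 at NF (adjusted p = 0.702) and 0.90 ± 0.37 at SL (adjusted p = 0.135). Called genes were 9.52% and 14.2% of those tested for Fur at NF and SL, and 0.927% and 4.31% for NWS. NWS SL ewes ranged from 3.92 to 24.4 CPM with a median of 8.34, and the top value belonged to a single ewe well above the next at 13.6 CPM. Without it, a fit added after the data were seen, the NWS difference at SL was 0.57 ± 0.34. Between the 2 Norwegian breeds at SF the difference, NWS minus Fur, was 0.52 ± 0.41 (adjusted p = 0.825), with 0.00639% of genes called.

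**Figure D2:**
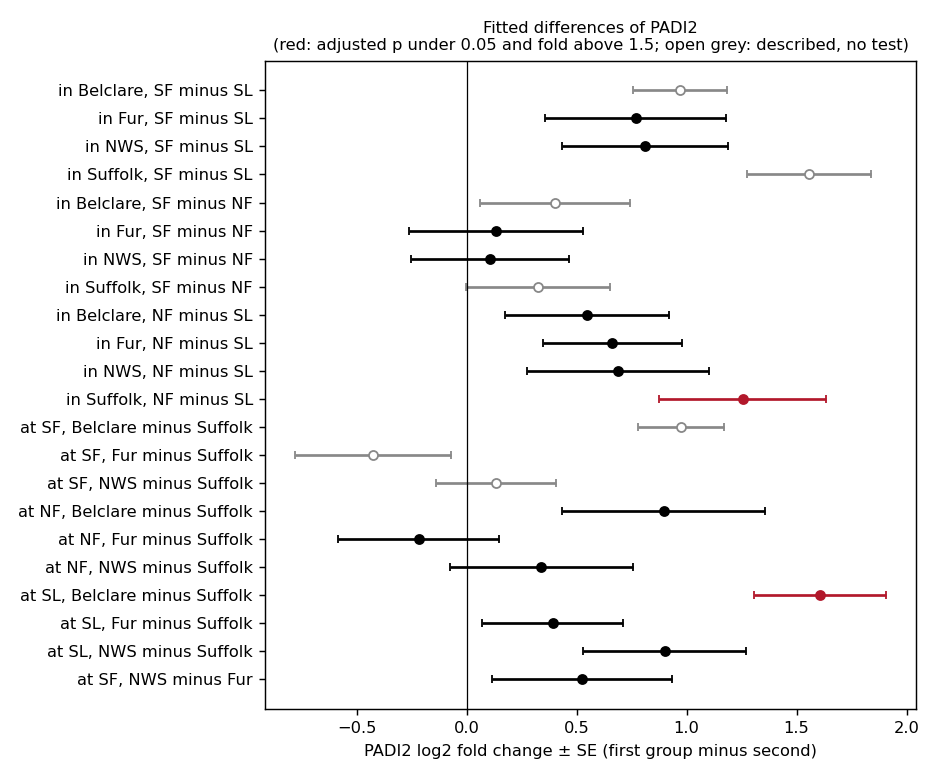
Fitted log2 fold change of PADI2 with its SE (horizontal axis) in each comparison (vertical axis). Filled points were tested and red ones called, which were Belclare minus Suffolk at SL (1.61) and NF minus SL in Suffolk (1.25), and open grey points use ewes on which PADI2 was chosen and have no test.

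The second question was the phase of the cycle. The luteal phase is dominated by progesterone and the follicular phase by rising oestradiol. No hormone concentration was analysed here. The fitted NF minus SL difference of PADI2 was above 0 in all 4 breeds and passed the test only in Suffolk when each breed was tested singly. Suffolk NF ewes ranged from 3.89 to 30.1 CPM (median 11.3) against 2.46 to 10.6 CPM (median 4.26) at SL. Of the 8 NF ewes 4 lay above every SL ewe. The difference was 2.39-fold (log2 fold change 1.25 ± 0.38, adjusted p = 0.0269), with 13% of genes called. It fell below the threshold without Suffolk NF replicate 8 (0.96, adjusted p = 0.0799) or replicate 2 (1.17, adjusted p = 0.0531), in fits without single ewes that were added after the data were seen.

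In the other breeds the ranges at NF and SL overlapped more. Belclare ewes ran from 5.66 to 66.1 CPM (median 15.7) at NF and from 7.56 to 28.1 CPM (median 16.3) at SL, so that the medians were nearly equal while 3 NF ewes exceeded every SL ewe. The fitted log2 difference was 0.55 ± 0.37 (adjusted p = 0.255), with 20.6% of genes called. Fur ewes ran from 3.01 to 20.03 CPM (median 12.2) at NF and from 2.53 to 12.6 CPM (median 6.004) at SL, a log2 difference of 0.66 ± 0.32 (adjusted p = 0.102), with 19.1% called. NWS ewes ran from 4.94 to 37.9 CPM (median 11.5) at NF, and their difference from SL was 0.69 ± 0.41 (adjusted p = 0.268), with 9.42% called. The NF minus SL difference itself was not shown to differ between the 4 breeds (interaction, adjusted p = 0.855, with 0.505% of genes called). Against Suffolk the contrast of this difference was -0.71 ± 0.54 in Belclare (adjusted p = 0.660, 0.671% of genes called), -0.61 ± 0.55 in Fur (adjusted p = 0.625, 0.588% called) and -0.55 ± 0.56 in NWS (adjusted p = 0.796, 0.032% called), so that the call in Suffolk alone does not set that breed apart. Averaged over the 4 breeds, again a contrast added after the first results were seen, PADI2 was 1.75-fold higher at NF than at SL (log2 fold change 0.80 ± 0.19, adjusted p = 0.000290). In that average 21.2% of genes were called, and PADI2 ranked at place 5357 by p.

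NF and SL ewes differed in cycle as well as in phase. Within the synchronised cycle the phases could be tested in the Norwegian breeds. Fur SF ewes ranged from 3.92 to 28.6 CPM (median 7.25) and Fur SL ewes from 2.53 to 12.6 CPM (median 6.004), a log2 difference of 0.77 ± 0.41 (adjusted p = 0.136), with 24.2% of genes called. NWS SF ewes ranged from 4.13 to 29.7 CPM (median 16.6) and NWS SL ewes from 3.92 to 24.4 CPM (median 8.34), a difference of 0.81 ± 0.38 (adjusted p = 0.0908), with 22.3% called. It passed without the NWS SL ewe at 24.4 CPM (1.13 ± 0.36, adjusted p = 0.0203) or without NWS SF replicate 9 (0.93, adjusted p = 0.0363). These were the only 2 to pass of 18 fits with 1 ewe left out, whose adjusted p reached 0.164. The added average of both breeds was 1.71-fold (log2 fold change 0.78 ± 0.29, adjusted p = 0.0201), with 27.1% of genes called. In the ewes on which PADI2 was chosen the fitted SF minus SL difference was 0.97 ± 0.21 in Belclare and 1.55 ± 0.28 in Suffolk, given without a test.

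For synchronisation itself, asked by SF against NF, no difference in PADI2 passed in Fur or NWS, the only breeds in which it was tested. In Fur the log2 difference was 0.13 ± 0.39 (adjusted p = 0.855), with 5.14% of genes called, and its sign depended on the measure, since the mean log2 CPM was 0.057 lower at SF (-0.057, exact permutation p = 0.894). In NWS it was 0.11 ± 0.36 (adjusted p = 0.932), with 0.0128% called. In Belclare and Suffolk the fitted differences, untested, were 0.40 ± 0.34 and 0.32 ± 0.33.

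PADI4 and PADI6, which lie near PADI2, followed the phase far more steeply than PADI2 in the same ewes. PADI4 had medians of 73.7, 104, 24.3 and 39.8 CPM at NF in Suffolk, Belclare, Fur and NWS, and of 7.86, 2.80, 5.17 and 5.50 CPM at SL. Its NF and SL ranges were apart in Belclare (8.36 to 258 CPM against 1.66 to 5.73 CPM) and in Fur (12.8 to 87.9 CPM against 2.19 to 10.1 CPM), and overlapped in Suffolk and NWS. The gene rose at NF relative to SL by 33.0-fold in Belclare (adjusted p = 4.03e-06), 6.39-fold in Fur (5.08e-05), 5.72-fold in NWS (0.0104) and 6.07-fold in Suffolk (0.00483). PADI6 had low counts, with medians of 1.41 to 8.15 CPM at NF and 0.222 to 0.393 CPM at SL. It rose by 18.5-fold, 6.15-fold, 5.12-fold and 8.73-fold in the same breeds, and adjusted p-values ran from 6.53e-06 to 0.0219. The names of both genes come from tables of genes that differed at SF, so group differences of both were tested only among NF, SL and NWS SF ewes. Within the synchronised cycle of NWS, SF exceeded SL by 5.08-fold for PADI4 and 7.02-fold for PADI6 (adjusted p = 0.00256 and 0.00240), beside the 1.76-fold of PADI2, which did not pass.

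In the luteal comparison of Belclare with Suffolk PADI2 and PADI4 lay in opposite directions. PADI2 was 3.04-fold higher in Belclare and PADI4 lower, with a log2 fold change of -1.89 ± 0.39 (adjusted p = 0.0220). PADI4 ranged from 1.66 to 5.73 CPM (median 2.80) in Belclare SL and from 3.96 to 35.8 CPM (median 7.86) in Suffolk SL. PADI6 stood at -0.90 ± 0.58 (adjusted p = 0.338) on counts of 0 to 57. At SL PADI4 was also lower in Fur than in Suffolk (-1.12 ± 0.39, adjusted p = 0.0385), and at NF PADI6 was lower in Fur (-1.86 ± 0.64, adjusted p = 0.0479), whereas PADI2 passed in neither. For PADI4 and PADI6 as for PADI2, the NF minus SL difference was not shown to differ between breeds (interaction, adjusted p = 0.115 and 0.574).

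**Figure D3:**
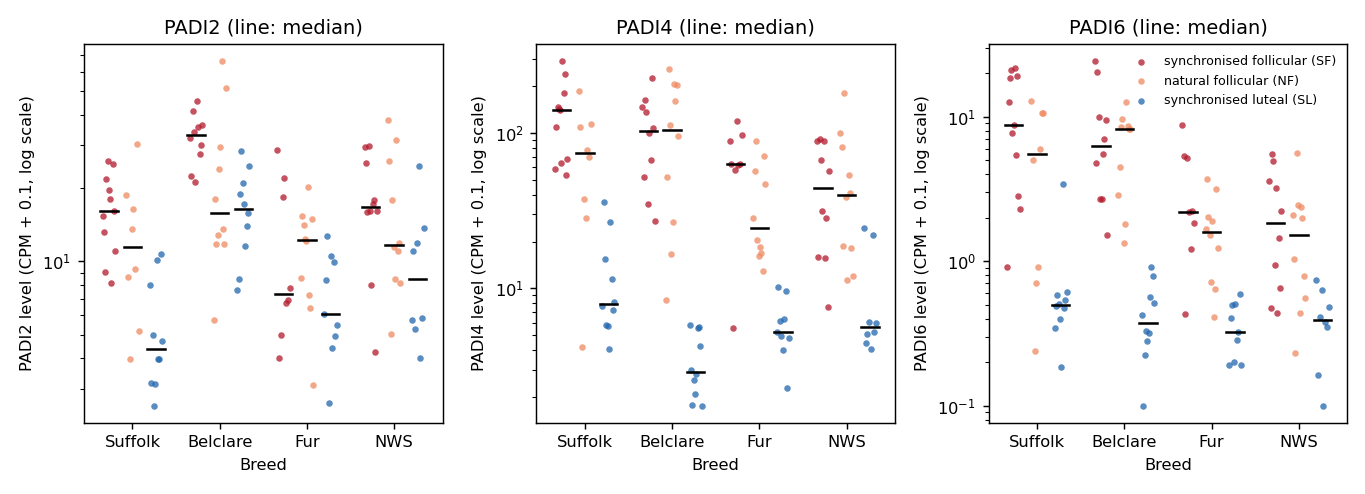
Levels of PADI2, PADI4 and PADI6 (vertical axes, CPM plus 0.1 on a log scale, each gene with its own axis) by breed (horizontal axes) and state (colours), with each point a ewe and lines at the median. PADI4 and PADI6 medians dropped at SL in every breed, whereas the Belclare medians of PADI2 were 15.7 CPM at NF and 16.3 CPM at SL.

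The response of the tissue to steroid hormones was followed by a list of 15 genes, whose names also come mostly from genes higher in Suffolk than in Fur at SF. Between NF and SL, 3 of the 15 were higher and none lower in Belclare, 4 and none in Fur, 3 and 1 in NWS, and 4 and none in Suffolk, where 20.6%, 19.1%, 9.42% and 13% of all genes were called in either direction, with list medians of 0.14, 0.26, 0.01 and 0.47 beside a median over all genes of -0.01 in Belclare and 0.00 in the others. GREB1, an oestrogen receptor target and cofactor, was called in all 4 breeds, with log2 fold changes of 4.72 ± 0.31 in Belclare, 3.07 ± 0.28 in Fur, 2.23 ± 0.57 in NWS and 2.76 ± 0.45 in Suffolk (adjusted p from 6.46e-09 to 0.0159). KLF9, which acts with the progesterone receptor, was called in Belclare (0.70), Fur (0.81) and Suffolk (0.61). ESR2, the oestrogen receptor beta, was the member called lower in NWS (-1.67 ± 0.53, adjusted p = 0.0420). The 0.55 to 1.25 of PADI2 in the same comparisons lay nearer to KLF9 than to GREB1.

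At SL, 2 of the 15 genes were lower and none higher in Belclare than in Suffolk, where 2.74% of all genes were called, with a list median of 0.03 beside -0.01 over all genes. GREB1 ranged from 13.8 to 41.2 CPM (median 23.6) in Belclare SL and from 26.0 to 254 CPM (median 54.8) in Suffolk SL (log2 fold change -1.75 ± 0.40, adjusted p = 0.0272). OXTR, the oxytocin receptor, was the other, and its Suffolk mean rested on a ewe at 225 CPM, with a median of 0.967 CPM there and 0.450 CPM in Belclare. PADI2 was thus higher in Belclare at SL in the same libraries in which GREB1 and PADI4 were lower. At NF the list had 0 calls between these breeds, in a comparison with a single called gene in all.

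Among 5 genes whose proteins are known to be citrullinated, 1, 2, 1 and 1 were higher at NF than at SL in Belclare, Fur, NWS and Suffolk, and none was lower, beside 20.6%, 19.1%, 9.42% and 13% of all genes called. KRT1, a keratin of the suprabasal epidermis, accounted for the call in Belclare (2.83 ± 0.57, adjusted p = 0.000755) and NWS (2.07 ± 0.61, adjusted p = 0.0308) and for 1 of the 2 in Fur (2.64 ± 0.42, adjusted p = 0.000109). The other in Fur and the one in Suffolk was HIST2H4B, one of several near-identical histone H4 genes, whose reads cannot be assigned with certainty. At SL 1 of the 5, FGB, a fibrinogen chain, was lower in Belclare than in Suffolk (-1.004 ± 0.28, adjusted p = 0.0478), opposite in sign to PADI2.

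Ewes of the same group were then compared with each other, with each value taken relative to its group mean over all grouped libraries. These include the Belclare and Suffolk SF ewes, whose difference in mean the centring removes. PADI2 rose with the mucous secretion markers (Pearson r = 0.312, permutation adjusted p = 0.0145, Spearman rho = 0.385, adjusted p = 0.000490), with a positive r in 12 of 12 groups. Without the 2 ewes farthest from the median marker level r was 0.275 (permutation adjusted p = 0.0541). With the epithelium markers r was 0.207 (permutation adjusted p = 0.105) and rho 0.284 (adjusted p = 0.0142). For granulocyte markers, which include the neutrophil surface gene CD177, r was 0.194 (permutation adjusted p = 0.124), and for leukocyte, endothelium, smooth muscle and fibroblast markers it lay between -0.0767 and 0.103 (permutation adjusted p from 0.552 to 0.834). The p-values were adjusted over the 7 lists.

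**Figure D4:**
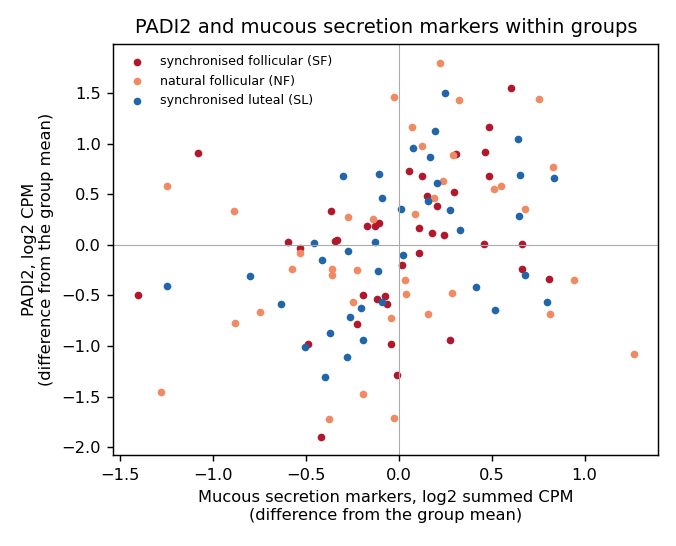
PADI2 log2 CPM (vertical axis) against the log2 summed CPM of 6 mucous secretion markers (horizontal axis), both as differences from the group mean, in all grouped ewes coloured by state. Points rise weakly to the right, with r = 0.312, and most of the spread in PADI2 is unrelated to the marker level.

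Marker genes were also compared between the phases, where 20.6%, 19.1%, 9.42% and 13% of all genes were called in Belclare, Fur, NWS and Suffolk. Between NF and SL, 4, 1, 1 and 1 of the 6 mucous secretion markers were higher in Belclare, Fur, NWS and Suffolk, and 1 was lower in Belclare. Their sum in Suffolk ranged from 1201 to 6995 CPM (median 2978) at NF and from 1103 to 3078 CPM (median 1730) at SL. With that level as a covariate the NF minus SL difference of PADI2 in Suffolk was 1.17 ± 0.41 (adjusted p = 0.0619). With the epithelium level it was 1.24 ± 0.38 and still called (adjusted p = 0.0291). In the same order of breeds 3, 2, 3 and 1 of the 5 fibroblast markers and 1, 2, 2 and 1 of the 3 smooth muscle markers were higher at NF, and none was lower. Of the 6 leukocyte markers 2 were lower at NF in Suffolk and 1 in Belclare, of the 9 epithelium markers 1 was lower in Belclare and 1 in NWS, and of the 2 endothelium markers 1 was higher in Belclare. The 3 granulocyte marker identifiers, CD177 and 2 entries of the 1 gene name CXCR2, were all higher at NF in Belclare, Fur and NWS. In Suffolk none of them was called, with a median log2 difference of 0.85. Their sum had group medians from 2.39 to 6.23 CPM at SL and from 5.195 to 11.2 CPM at NF. The part of these markers in the PADI2 difference was not tested. A call lost in a fit with a covariate does not measure it, since an adjusted p also depends on how many other genes pass.

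Of the genes with a name, those most like PADI2 within groups were ATP6V0A4 (r = 0.539), a subunit of the vacuolar proton pump, SLC13A2 (0.538), a sodium-coupled dicarboxylate carrier, TMEM213 (0.536), SOWAHA (0.503) and KATNAL2 (0.501), over all grouped libraries. Each had a positive r in 11 or 12 of the 12 groups. The named genes with the lowest r were SLC22A16 (-0.449), CLIP2 (-0.418) and ASTN2 (-0.417). These were picked as extremes among the 1350 kept genes with a name, and are a description. Among all 15649 genes the 5 highest named ones held places 3, 4, 5, 12 and 13. Of all genes 13 had an r above 0.5 and 1 below -0.5. The identifier with the highest r of all, ENSOARG00000015229 (0.557), had no name. Over the 12 group means the named genes most like PADI2 were MYO1A (r = 0.854), SAA1 (0.807) and TGM7 (0.798), whose own r within groups was 0.271, 0.123 and 0.146. Their mean levels were low, at 3.50, 3.23 and 3.02 CPM. These group means include Belclare SF and Suffolk SF, on which PADI2 was chosen, and the names come from genes that differed at SF. The likeness over group means is therefore a description only.

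Among its neighbours on the chromosome, PADI6 and PADI4 had an r with PADI2 within groups of 0.249 and 0.217 (permutation adjusted p = 0.0549 and 0.0936), and ATP13A2 and CROCC, on the other side, of -0.00628 and -0.0134 (permutation adjusted p = 0.949 for both). These 4 genes were added after the data were seen, and their p-values were adjusted over the 4.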

How the data were processed

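The authors sequenced stranded polyadenylated RNA libraries, trimmed the reads, aligned them to Oar_v3.1 with STAR 2.6.1b, kept uniquely mapped pairs and counted them on Ensembl protein-coding genes with featureCounts of Subread 1.6.3. They deposited raw counts per gene and library without normalization. Whether counting used strand is not given in the sources used here. PADI2 and all lists were chosen with earlier results of these data known. Genes with at least 1 CPM in at least 10 of the grouped libraries were kept (15649 of 27054). Names came from the study's supplementary tables (1352 identifiers). Each comparison was a quasi-likelihood fit of its own groups with edgeR 4.0.16 in R 4.3.3 (TMM, Benjamini-Hochberg over all genes), checked on simulated counts. The SE is the log2 fold change divided by the square root of F. Correlations used log2 CPM with a prior count of 2, 100000 shuffles of ewes within groups, numpy 2.4.6 and scipy 1.17.1. Named genes were the PADI family, at most 8 listed genes, the 5 named genes with the highest and 3 with the lowest r within groups, and the 3 with the highest r over group means. Alternatives were DESeq2 1.42.0, other size factors and filters, 1 fit of all 12 groups, a replicate block, exact permutation tests and leaving out ewes. Of 490 pairs of libraries within groups, none agreed within counting noise. One library was left out because its title and its other labels disagree.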

Additional observations from a re-analysis of the deposited data

Results flagged for a closer look

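Within groups of 8 to 10 ewes, the gap between an extreme ewe and its neighbour was compared with Dixon's critical value. PADI2, PADI4 and PADI6 gave 33 groups in all. About 1 in 20 would be picked by chance if CPM were normally distributed, which was not checked. The critical value was exceeded in 4, each time by the highest ewe. In NWS SL replicate 5, PADI2 was at 24.4 CPM, with the next ewe at 13.6 CPM, a gap of 0.528 of the range. NWS NF replicate 4 had the top values of both PADI4 (181 CPM, next 100.2) and PADI6 (5.51 CPM, next 2.34). Suffolk SL replicate 7 had 3.31 CPM of PADI6, with the next ewe at 0.514 CPM. The cause was not tested for any of them. The 11 Suffolk SF ewes were not examined in this way.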

How the results depend on the processing

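Of 185 alternative values, 173 kept their direction and their side of the threshold. Replicate numbers do not mark a shared animal, and same-numbered libraries did not deviate together (median correlations from -0.200 to 0.158 in 22 comparisons, none with every pair above 0.1, 21 of 194 pairs correlating best with their own number). With the replicate number as a block, PADI2 at SL in Belclare minus Suffolk (1.66, adjusted p = 0.0624) and NF minus SL in Suffolk (1.26, adjusted p = 0.0841) were no longer called, NF minus SL in Fur (0.83, adjusted p = 0.0481) and SF minus SL in NWS (1.11, adjusted p = 0.0174) were, and the sign turned for Fur minus Suffolk at NF (0.16), SF minus NF in Fur (-0.18) and its contrast NWS minus Fur (0.45). The block changed no other call. The sign of SF minus NF in Fur also turned in the exact permutation test (-0.057). In fits with a covariate, no call remained for Belclare minus Suffolk at SL (1.21 with epithelium, 1.39 with mucous markers). The same held for NF minus SL in Suffolk with mucous markers (1.17). Without the 2 farthest libraries, the r with the mucous markers was 0.275. The covariates, and the fits without single ewes for NF minus SL in Suffolk and without NWS SL replicate 5, were chosen after seeing the data. The cause was not tested.

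With each ewe left out in turn, PADI2 ranged from 1.49 to 1.77 for Belclare minus Suffolk at SL (adjusted p from 0.00794 to 0.0364) and from 0.59 to 1.19 at NF. It ranged from 0.96 to 1.42 for NF minus SL in Suffolk, from 0.47 to 0.91 for SF minus SL in Fur and from 0.68 to 1.13 in NWS. Without NWS SL replicate 5 it was 0.57 for NWS minus Suffolk at SL and 1.02 for NF minus SL in NWS. Over all alternatives the adjusted p of Belclare minus Suffolk at SL ran from 3.22e-05 to 0.131, and that of NF minus SL in Suffolk from 0.00730 to 0.0841.

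Counts of called genes moved more than PADI2. For Belclare minus Suffolk at SL 429 genes were called, from 23 with the block to 1083 in one fit of all groups, and at NF 1, from 0 with the filter on SF ewes to 68 in one fit, with 1552 at an unadjusted p under 0.05. For NWS minus Suffolk it was 145 at NF (0 to 1428) and 674 at SL (195 to 1322), and for Fur minus Suffolk 1490 at NF (964 to 3013) and 2229 at SL (2050 to 4606). NF minus SL called 2030 genes in Suffolk (1078 to 3186), 3216 in Belclare (2873 to 6114), 2988 in Fur (2538 to 6171) and 1474 in NWS (213 to 2159). SF minus SL called 3780 in Fur (3459 to 7067) and 3491 in NWS (2785 to 6387), SF minus NF 804 in Fur (393 to 2818) and 2 in NWS (0 to 101), and NWS minus Fur at SF 1 (1 to 40). The breed by state interaction called 79 (16 to 249).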

Other observations

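The library left out, a Suffolk ewe whose title and other labels name different cycles and phases, had 2.04 CPM of PADI2 (35 counts of 15387419), below the lowest grouped ewe at 2.46 CPM. It had 24.7 CPM of PADI4 and 1 count of PADI6.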
